A study of Mus musculus with 5 samples.

Results

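The genes described here are the 150 protein-coding Zfp genes numbered 1 to 400 among the 22380 protein-coding gene entries of the GENCODE vM1 annotation of the mouse genome (build mm9), chosen by symbol alone: Zfp followed by a whole number up to 400, with or without a trailing letter or an l suffix (Zfp319 has 2 entries, which were joined). Of these 150 members, 136 encoded a protein with at least 3 matches to the C2H2 zinc finger pattern, and 34 of these also held a stretch like the conserved core of the KRAB domain. The other numbered Zfp genes, 214 with a number above 400, served as the group most like them. The genes just outside the limit, Zfp407 and Zfp408, each had 4 peaks in both lists, beside 3 and 4 at Zfp397 and 3 and 3 at Zfp398, the members just inside it.

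The study asked how inhibition of sphingosine-1-phosphate lyase, the enzyme that irreversibly breaks down sphingosine-1-phosphate, affects acetylation of lysine 9 of histone H3 (H3K9ac) in a cell model of Huntington's disease. H3K9ac chromatin immunoprecipitation followed by sequencing had been carried out on STHdhQ111/Q111 striatal progenitor cells of the C57BL/6 strain, which carry mutant huntingtin and are conditionally immortalised. All cells were kept in serum-free medium for 24 h, either with the vehicle DPBS (Q111 SST, 2 samples) or with 4 mM 4-deoxypyridoxine hydrochloride, an inhibitor of the lyase (Q111 DOP, 2 samples). A further sample, the IgG control from serum-starved cells without the inhibitor, has no peak list among the files used and was not analysed here. The cells are a single immortalised line, and the labels do not say whether the samples of a condition came from separate cultures.

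The data were 1 list of peaks per condition, so that every value below compares 2 lists without replicates, and the 95% Wilson intervals cover counting error only. The DOP list held 34286 peaks and the SST list 33355, each peak an interval of 200 bp in all but 1 case, with a score whose scale is not defined in the sources used here. Scores were therefore given as percentiles within their own list, where 100 is the highest-scoring peak. The reads behind each list, and so its depth, are unknown, as is how near a peak missing from 1 list came to the calling threshold. Peaks were assigned by their centres: a gene received each peak centred no more than 10 kb from 1 of its annotated transcript starts.

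Zinc finger genes of the C2H2 type form the largest family of DNA-binding proteins in mammals, and many of them arose by tandem duplication, so that neighbouring genes have similar coding sequences. Members with a KRAB domain typically recruit the co-repressor Trim28, which brings in the H3K9 methyltransferase Setdb1 and silences transposable elements. H3K9ac marks the starts of active genes, whereas methylation of the same lysine marks silenced chromatin and has been described over the finger-coding ends of such gene clusters.

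The sequences before the starts differed widely among the members, and examples of genes with high peaks and without peaks are shown with each CG pair in capitals. They were picked after their values were seen, to show CG-rich and CG-poor stretches, and several other members without a peak had higher CpG ratios than Zfp317 and Zfp72, up to 0.734 at Zfp105. The 120 bases before the first start of Zfp319 (chr8:97855851-97855970, minus strand, mm9), Zfp91 (chr19:12870617-12870736, minus strand) and Zfp367 (chr13:64254511-64254630, minus strand) lie next to 3 of the highest-scoring peaks of any member, and held 13, 13 and 15 CG pairs. The same stretch before Zfp317 (chr9:19445548-19445667, plus strand) and Zfp72 (chr13:74514015-74514134, minus strand), which had no peak in either list, held 1 and 0. None of these stretches overlaps an annotated exon.
Zfp319: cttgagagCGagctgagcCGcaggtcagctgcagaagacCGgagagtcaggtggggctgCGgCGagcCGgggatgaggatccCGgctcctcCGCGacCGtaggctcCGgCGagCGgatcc
Zfp91: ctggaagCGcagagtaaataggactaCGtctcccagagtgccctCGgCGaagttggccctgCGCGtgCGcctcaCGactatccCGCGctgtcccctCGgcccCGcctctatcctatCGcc
Zfp367: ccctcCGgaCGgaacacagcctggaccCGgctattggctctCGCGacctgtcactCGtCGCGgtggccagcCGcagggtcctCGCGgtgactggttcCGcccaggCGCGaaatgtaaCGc
Zfp317: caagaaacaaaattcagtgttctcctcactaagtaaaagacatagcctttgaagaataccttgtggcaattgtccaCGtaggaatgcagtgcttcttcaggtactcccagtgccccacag
Zfp72: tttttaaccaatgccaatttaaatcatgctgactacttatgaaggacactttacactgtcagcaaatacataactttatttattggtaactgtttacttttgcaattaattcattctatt

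Most members carried H3K9ac near a start in both conditions. In the DOP list 133 of the 150 members (88.7%, interval 82.6 to 92.8) had at least 1 peak, beside 57.7% of all protein-coding genes, and in the SST list 130 (86.7%, 80.3 to 91.2), beside 56.9%. The Zfp genes numbered above 400 stood at 80.8% (75.0 to 85.6) and 80.4% (74.5 to 85.1). The peaks of the members nevertheless had lower scores than those of genes in general. Among genes with a peak, the highest peak of a gene had a median percentile of 69.9 in the DOP list and 67.0 in the SST list for the members, against 78.4 and 77.3 for all genes and 64.2 and 61.2 for the Zfp genes above 400. A peak in the upper 50% of its list was found at 96 members in the DOP list (64%, 56.1 to 71.2), beside 46.1% of all genes, and at 92 in the SST list (61.3%, 53.3 to 68.8), beside 45.0%.

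Most peaks at the members lay around the starts. Of the 355 DOP and 342 SST peaks near the members, 268 (75.5%) and 256 (74.9%) had their centre within 1 kb of a start of a member. Of the peaks within 10 kb of any protein-coding start, 86.9% and 87.7% lay within 1 kb of one. These shares are not directly comparable, because the second counts the starts of all genes. Near the members, 53 DOP and 48 SST peaks lay nearest to the start of another gene. The peaks within 1 kb of a member's start lay mainly downstream, 187 against 81 in the DOP list and 194 against 62 in the SST list. By annotation 175 DOP and 180 SST peaks were in introns, 58 and 61 in a 5′ UTR, 19 and 17 in coding exons, and 95 and 74 outside protein-coding genes. The last coding exon, which in many C2H2 genes encodes the finger array, held a peak in 3 members in the DOP list (Zfp36, Zfp36l2 and Zfp281) and in 2 in the SST list (Zfp36l2 and Zfp281), and the first 2 of these names do not belong to C2H2 genes. Within the bodies of the members, beyond 10 kb from any start, there were 3 peaks in each list.

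**Figure D1:**
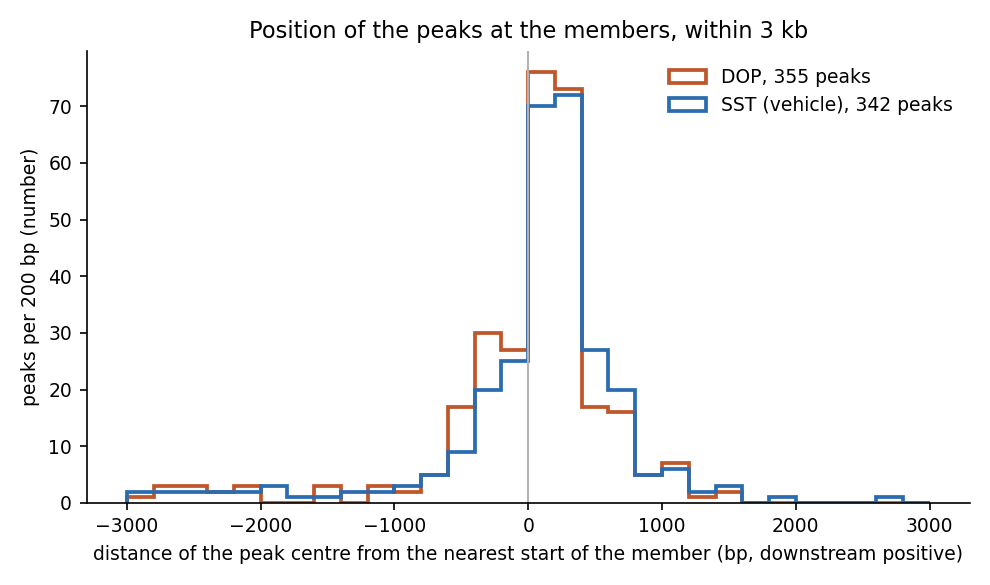
Number of peaks per 200 bp (vertical axis) by the distance of the peak centre from the nearest start of a member in bp (horizontal axis, downstream positive), for the DOP list (355 peaks) and the SST list (342 peaks), within 3 kb. Both lists peak just downstream of the start and fall off within 1 kb.

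The CpG content of the start region ran with the presence of a peak. The ratio of observed to expected CpG in the 500 bp on either side of the first start had a median of 0.649 in the 133 members with a peak and 0.327 in the 17 without. At a ratio of 0.6 or more, 88 of 89 members had a DOP peak (98.9%, 93.9 to 99.8) and 87 an SST peak (97.8%, 92.2 to 99.4), against 88.3% and 88.0% of all genes in that range. Zfp105, with a ratio of 0.734, was the member of that range with no peak in either list. Below 0.4, 22 of 32 members had a peak in each list (68.8%, 51.4 to 82.0), against 22% and 21.2% of all genes. Between 0.4 and 0.6 the counts were 23 (79.3%, 61.6 to 90.2) and 21 (72.4%, 54.3 to 85.3) of 29, against 59.9% and 57.8%. The share of members with a peak was thus above that of all genes in each range, and the distance was widest at the lowest ratios. Some of these genes have further starts elsewhere, and the ratio describes the first start only.

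**Figure D2:**
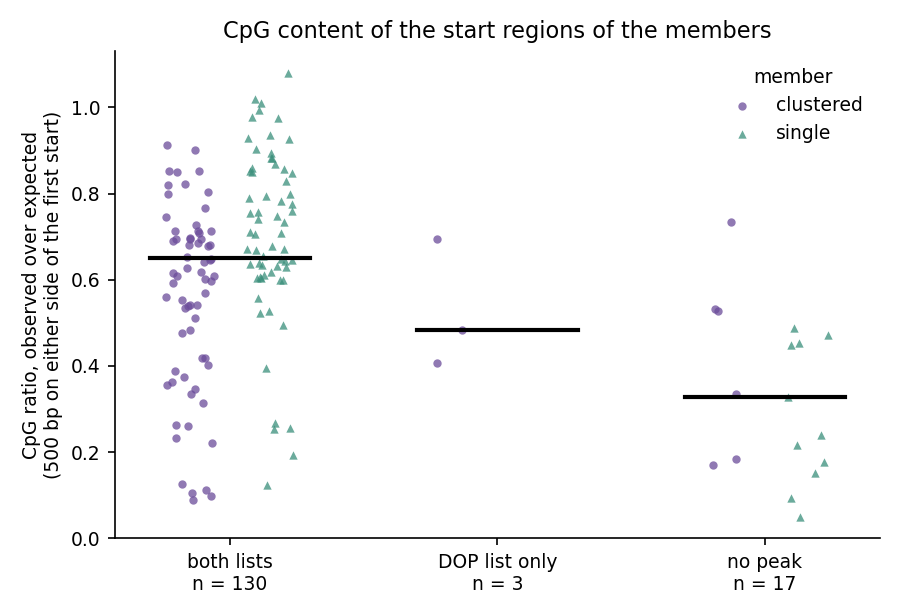
CpG ratio of the 1 kb around the first start (vertical axis, observed over expected) for the 130 members with peaks in both lists, the 3 with peaks in the DOP list only and the 17 with none; circles are clustered members, triangles single ones, and black bars medians. Members without a peak have a median of 0.327, and all but 1 of them lie below 0.6.

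The 17 members without a peak included genes known from other tissues. Zfp42 (Rex1), a marker of pluripotent cells, Zfp352, a gene of the early embryo, Zfp353 and Zfp36l3, a placental member of the tristetraprolin family, were without peaks in both lists. The 3 Zfp385 genes, a, b and c, had none. The nearest peaks to Zfp385a lay just outside the window, at 11031 bp (DOP) and 10930 bp (SST). Peaks were also missing at Zfp366, Zfp125, Zfp345, Zfp286, Zfp300, Zfp92, Zfp114, Zfp105, Zfp72 and Zfp317. For a few of these the start regions were poor in 32-base words that occur once in the genome, where short reads may not be placed: 36.8% of the words at Zfp345, 40.2% at Zfp353 and 40.7% at Zfp125 were unique, against medians of 97.8% and 98.1% over the clustered and the single members. How far this entered the absence of peaks was not tested.

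The 5 highest peaks belonged to single genes, the same 5 in both lists. Zfp319, a C2H2 gene on chromosome 8 (97846914 to 97855850), had 2 peaks in each list, the higher at a percentile of 99.8 in both, in its 5′ UTR 395 bp and 401 bp downstream of the start, and the lower nearest to the start of AA960436. Zfp91, which encodes a zinc finger protein with ubiquitin ligase activity, had 5 peaks in each list and its highest at 99.7 (DOP) and 99.8 (SST) in a coding exon. Zfp1 had 3 DOP and 4 SST peaks with the highest at 99.7 and 97.4. Zfp367 had 8 DOP and 7 SST peaks with the highest at 99.3 and 99.1, of which 3 DOP and 4 SST peaks lay nearest to the start of the neighbouring Habp4. Zfp276 followed with 3 peaks in each list and 96.6 and 97.2. In each of the 5 genes the highest DOP and SST peaks overlapped.

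Clustered and single members were equal in number. A member was called clustered when another numbered Zfp gene, of any number, lay within 100 kb of it, and by this measure 75 members fell into 30 clusters and 75 were single. Of the clusters 23 held 2 or more members, and the other 7 held 1 member beside genes numbered above 400. Chromosome 7 carried 31 members, 27 of them clustered, and chromosome 17 carried 18, of which 12 were clustered. The pair just inside the limit was Zfp263 and Zfp174, 96478 bp apart, and just outside it stood Zfp354a, 127624 bp from Zfp354b. The clustered members had more fingers, a median of 12 against 7, and 28 of them held the KRAB-like stretch against 6 of the single members.

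Taken over all CpG ratios, clustered and single members had a peak at similar shares, but clustered members had fewer and lower ones. In the DOP list 69 of 75 clustered members had a peak (92.0%, 83.6 to 96.3) and 64 of 75 single members (85.3%, 75.6 to 91.6). In the SST list the counts were 66 (88.0%, 78.7 to 93.6) and 64 (85.3%, 75.6 to 91.6), and in both lists the intervals overlapped. Only 1 peak was found at 20 clustered and 5 single members in the DOP list and at 24 and 6 in the SST list. Conversely 4 or more peaks were found at 6 clustered and 24 single members in the DOP list and at 8 and 25 in the SST list. The highest peak had a median percentile of 57.3 (95% interval of the median, from order statistics, 44.2 to 63.0) in clustered and 81.2 (75.2 to 85.5) in single members in the DOP list, and 50.3 (43.6 to 63.8) and 82.8 (69.6 to 88.1) in the SST list. Genes of a cluster share sequence and lie side by side, so they are not independent of each other and these intervals are too narrow. Counted with peaks of the upper 50% of each list alone, the order of the shares turned: 53.3% (42.2 to 64.2) of the clustered and 74.7% (63.8 to 83.1) of the single members in the DOP list, and 45.3% (34.6 to 56.6) and 77.3% (66.7 to 85.3) in the SST list. With a window of 1 kb it turned in the SST list, 77.3% of the clustered against 81.3% of the single members, but not in the DOP list, 82.7% against 81.3%.

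**Figure D3:**
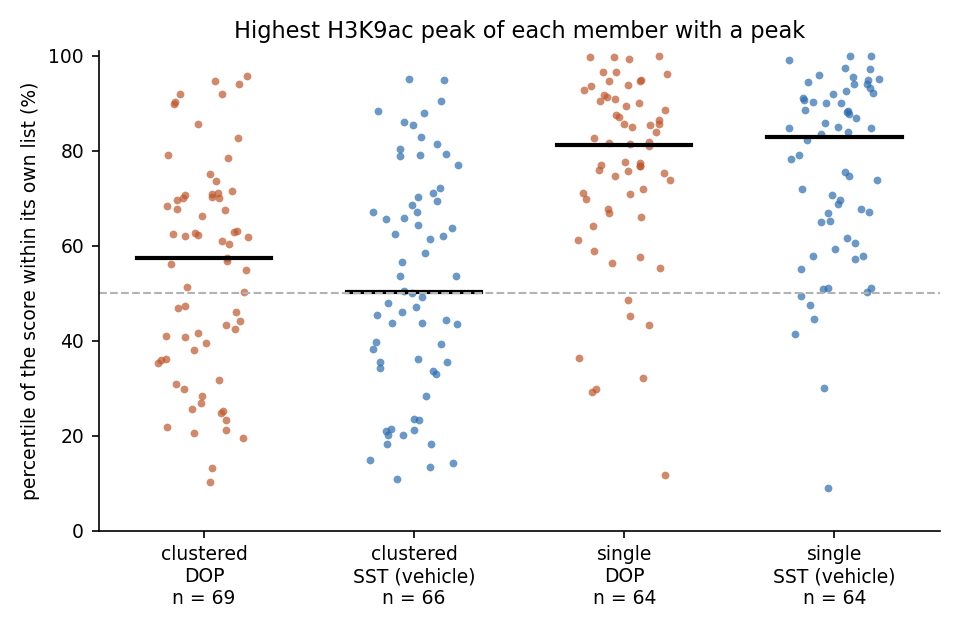
Percentile of the highest peak of each member with a peak within its own list (vertical axis, %), for clustered members (69 in the DOP list, 66 in the SST list) and single members (64 in each); each point is 1 gene, black bars are medians and the dashed line marks the middle of the list. The medians are 57.3 and 50.3 for clustered and 81.2 and 82.8 for single members.

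Several properties moved with the grouping. The median CpG ratio of the start region was 0.596 in clustered and 0.670 in single members. At a ratio below 0.4, 16 of 19 clustered members (84.2%) and 6 of 13 single ones (46.2%) had a peak in each list. Between 0.4 and 0.6 the shares were 89.5% of 19 and 60.0% of 10 in the DOP list, and 78.9% and 60.0% in the SST list. At 0.6 or more they were 97.3% of 37 and 100% of 52 in the DOP list, and 94.6% and 100% in the SST list. These groups are small, and the split was not tested. Within the range of 0.6 or more, the highest peak had a median percentile of 68.0 in 36 clustered members with a DOP peak and 81.5 in 52 single ones, and 67.1 in 35 and 84.7 in 52 in the SST list. Limited to members in whose start region at least 90% of the 32-base words are unique, 93.1% of 58 clustered and 89.2% of 65 single members had a DOP peak, and the medians of the highest peak were 61.5 and 81.2 (DOP) and 51.5 and 82.8 (SST). Peaks that lay nearer to the start of another gene made up 6.43% of the DOP and 5.30% of the SST peaks at clustered members, but 20.5% and 19.5% of those at single members. With such peaks left out, the clustered median remained below the single median in both lists, as it did under each of the 10 alternatives in which both were computed.

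Members with the KRAB-like stretch, whose proteins are mostly repressors, were mostly clustered, 28 of 34, and had peaks as low. Of these genes 32 had a peak in each list (94.1%, 80.9 to 98.4), and their highest peaks had medians of 53.2 and 49.8, against 72.0 and 71.2 for members without the stretch. The stretch was sought with a fixed pattern, so the members without a match may include genes with a KRAB domain that departs from it. The contrast is therefore between matches and other members, and not between KRAB and other genes. The 6 single genes with the stretch had medians of 50.2 and 50.6. For the factors with which KRAB proteins work, all 12 listed genes had a peak in both lists (a second annotated entry of Atf7ip had none), with medians of 90.8 and 89.5 for the highest peak. Over all protein-coding genes the shares were 57.7% and 56.9% and the medians 78.4 and 77.3. The listed entries had a median CpG ratio of 0.781. Among all genes with a ratio of 0.6 or more, 88.3% and 88.0% had a peak, with medians of 82.2 and 81.6. The lowest of the listed genes was Atf7ip, a partner of Setdb1, with 2 peaks in each list and the highest at 21.4 and 17.5. The co-repressor Trim28 had 8 peaks in each list, the highest at 95 and 93.6. Setdb1, the methyltransferase, had 2 in each at 79.6 and 76.4, and the heterochromatin protein gene Cbx5 had 8 DOP and 7 SST peaks at 95 and 92.0.

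The largest cluster lay on chromosome 7 from 24866943 to 25101685 and held 10 members. From left to right, Zfp180 had 2 peaks in each list, Zfp112 2 in each, Zfp235 1 in each, Zfp114 none, Zfp111 2 in each, Zfp109 1 in each, Zfp108 1 in each, Zfp93 2 DOP and 1 SST peaks, Zfp61 2 DOP and 3 SST peaks, and Zfp94 2 DOP and no SST peaks. The highest of them was a DOP peak at Zfp180 with a percentile of 70.0, where the highest SST peak reached 65.9. Altogether 15 DOP and 13 SST peaks were counted, and 3 of the DOP peaks, 2 of them at Zfp94, overlapped no SST peak. Within 10 kb of any protein-coding start, 16.2% of DOP peaks overlapped no SST peak. The share of unique words around the starts had a median of 89.7% over this cluster and 98.0% over all members, with the lowest value, 78.8%, at Zfp112.

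The second cluster on chromosome 7, from 30553571 to 30954746, held 9 members, each with a peak in both lists. It was the cluster with the most peaks at its members, 19 in the DOP list and 23 in the SST list, of which 5 and 8 overlapped none of the other list. Such peaks made up 16.2% of the DOP and 13.3% of the SST peaks within 10 kb of any protein-coding start. In this cluster, 5 members (Zfp14, Zfp74, Zfp82, Zfp260 and Zfp382) had fewer DOP than SST peaks and 1, Zfp27, had more, 3 against 1. Over all protein-coding genes with a peak, 28.5% had fewer and 32.5% more DOP peaks. No peak near Zfp14, which had 1 DOP and 2 SST peaks, was nearest to its own start. Zfp260 had 3 DOP and 5 SST peaks, or 1 and 4 when only peaks nearest to its own start were counted. The highest stood at 62.0 (DOP) and 53.7 (SST), but these were different peaks. The highest DOP peak lay in an intron of Zfp260, and the highest SST peak in an intron of the neighbouring Zfp566. The SST peak that overlapped the highest DOP peak had a percentile of 50.2. Zfp30 had 2 in each list and the highest DOP peak of the cluster, at 79.0, with 65.5 in the SST list.

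On chromosome 17 from 21560191 to 21699565, Zfp54, Zfp51, Zfp53 and Zfp52, which all held the KRAB-like stretch, carried 9 DOP and 10 SST peaks. Zfp54 had 2 in each list, none above a percentile of 23.3. Zfp51 had 2 DOP peaks and 1 SST peak, Zfp53 2 and 3, and Zfp52 3 and 4. At Zfp53 and Zfp52 the highest peaks lay at -2003 bp and -3087 bp from the annotated start in the DOP list and at -1920 bp and -3062 bp in the SST list, negative distances being upstream. The CpG ratio at the annotated start of Zfp53 was 0.0877. A further cluster of 4 members on chromosome 7, from 13390326 to 13559585 with Zfp329, Zfp110, Zfp128 and Zfp324, carried 8 DOP and 9 SST peaks, and each of its members had a peak in both lists.

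**Figure D4:**
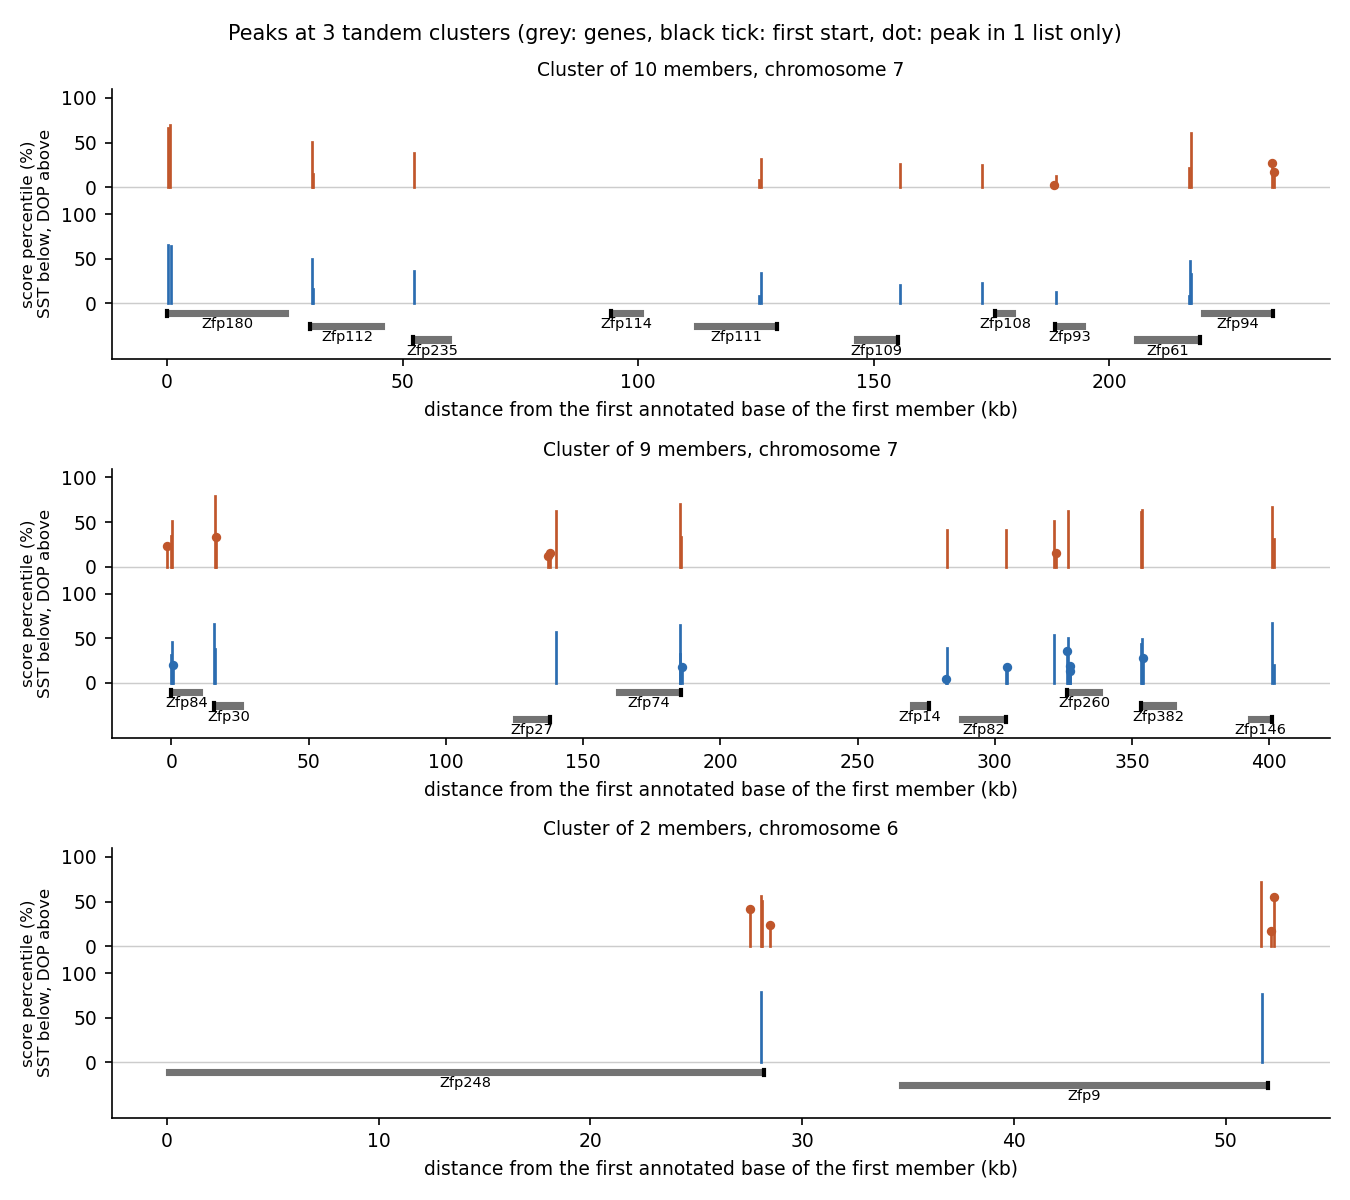
Peaks at the clusters of 10 and of 9 members on chromosome 7 and at the pair Zfp248 and Zfp9 on chromosome 6; the horizontal axis is the distance in kb from the first annotated base of the first member, and the height of each line the percentile of the peak's score within its list (0 to 100%), SST below and DOP above. Grey bars are the members, black ticks their first starts, and dots mark peaks that overlap none of the other list. Only members and the peaks near them are drawn. Zfp94, at the right end of the upper cluster, has 2 such DOP peaks and no SST peak.

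Among the 23 clusters with 2 or more members, 9 had more DOP than SST peaks, 9 fewer and 5 equal numbers. At least 1 member carried a peak in 29 of the 30 clusters in the DOP list and in 28 in the SST list, and every member did in 24 and 22. The cluster without a peak in either list was that of Zfp345 on chromosome 2, its only member, and the one that had a peak in the DOP list alone was that of Zfp273. The pair Zfp248 and Zfp9 on chromosome 6, whose bodies lie 6422 bp apart, had 7 DOP and 2 SST peaks, and 4 of the DOP peaks overlapped no SST peak. The share of such DOP peaks within 10 kb of any protein-coding start was 16.2%. Zfp60 and Zfp59 on chromosome 7 had 5 DOP and 2 SST peaks.

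Some pairs of neighbours share so much sequence that reads may not be placed between them. The 120 bases before the start of Zfp119a (chr17:56018128-56018247, minus strand, mm9) and of Zfp119b (chr17:56084598-56084717, minus strand) differ at 1 base, shown in capitals, and are printed because both genes have a peak over the start in both lists. At Zfp119a 50.7% and at Zfp119b 58.8% of the words around the start were unique. Zfp119a had 2 peaks in each list, with the highest at 69.5 (DOP) and 70.2 (SST), and Zfp119b 1 in each, at 73.5 and 72.1. Zfp97 had 2 DOP peaks and 1 SST peak although 0.203% of its words were unique, and which copy the reads came from cannot be told apart.
Zfp119a: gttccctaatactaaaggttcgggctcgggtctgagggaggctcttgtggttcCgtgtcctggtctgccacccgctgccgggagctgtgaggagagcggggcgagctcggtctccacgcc
Zfp119b: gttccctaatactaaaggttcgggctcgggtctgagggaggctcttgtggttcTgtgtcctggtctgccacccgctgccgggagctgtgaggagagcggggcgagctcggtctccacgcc

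Short sequence motifs near the first start were counted in the 250 bases before it and the 50 from it on, on both strands, for 8 motifs chosen with the sequences in view. ACTACANNT and TTCCCAGAA are parts of the element bound by Zfp143, itself a member, and they overlap by 2 bases where the element is complete. Genes of a cluster share sequence by descent, so their matches are not independent. ACTACANNT occurred in 19 of 75 clustered members (25.3%, 16.9 to 36.2), in 7 of 75 single members (9.33%, 4.59 to 18) and in 4.91% of all protein-coding genes. The 19 genes came from 10 of the 30 clusters. TTCCCAGAA occurred in 9 clustered members (12%, 6.44 to 21.3), 1 single member (1.33%, 0.236 to 7.17) and 1.20% of all genes. CCGGAAG, the core of ETS factor sites, was found in 21.3% (15.5 to 28.6) of the members and 10.8% of all genes, and GCGCATGCG, the site of NRF1, in 6.67% (3.66 to 11.8) and 2.10%. GGGCGG, the core of GC boxes, was found in 30.7% (21.4 to 41.8) of clustered members, 52.0% (40.9 to 62.9) of single members and 43.4% of all genes. TATAAA, the core of the TATA box, stood in 14% of the members and 13.4% of all genes, the E-box CACGTG in 4.67% and 7.78%, and TGACGTCA, the cAMP response element, in 2.67% and 2.32%. A match is a description of these letters and not a site of binding. Because the motifs were chosen in view of the sequences, the intervals do not measure an excess over all genes. Members and all genes were also not matched for CpG ratio here.

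The element is shown for members of the largest cluster, and for Zfp273 on chromosome 13, in the 120 bases before the first start. Capitals mark matches to ACTACANNT or TTCCCAGAA, which here read as their reverse complements. The stretches are Zfp93 (chr7:25055319-25055438, plus strand, mm9), Zfp180 (chr7:24866823-24866942, plus strand), Zfp235 (chr7:24919073-24919192, plus strand), Zfp94 (chr7:25101686-25101805, minus strand) and Zfp273 (chr13:67914633-67914752, plus strand), and none overlaps an annotated exon. The run in capitals was the same in Zfp93, Zfp180 and Zfp235. Zfp94 held the motif TTCCCAGAA in 2 places of this stretch and ACTACANNT further upstream.
Zfp93: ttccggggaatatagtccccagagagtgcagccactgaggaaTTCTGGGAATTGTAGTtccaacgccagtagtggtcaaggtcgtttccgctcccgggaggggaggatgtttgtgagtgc
Zfp180: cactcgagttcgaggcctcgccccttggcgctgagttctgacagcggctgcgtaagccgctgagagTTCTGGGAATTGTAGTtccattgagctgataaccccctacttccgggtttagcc
Zfp235: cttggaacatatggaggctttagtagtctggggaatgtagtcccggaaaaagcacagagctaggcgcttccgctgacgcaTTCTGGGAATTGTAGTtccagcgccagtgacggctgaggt
Zfp94: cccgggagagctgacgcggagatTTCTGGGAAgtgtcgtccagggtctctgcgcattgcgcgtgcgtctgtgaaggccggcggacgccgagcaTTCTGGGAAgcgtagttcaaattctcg
Zfp273: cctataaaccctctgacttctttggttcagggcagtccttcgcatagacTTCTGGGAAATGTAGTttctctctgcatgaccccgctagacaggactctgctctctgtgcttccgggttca

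Between the conditions, few members had peaks in 1 list only. Peaks of both lists were found at 130 members and of the DOP list only at 3 (Zfp13, Zfp94 and Zfp273), which is 2% (0.682 to 5.71), beside 2.39% of all protein-coding genes. Peaks of the SST list only were found at 0 members (interval up to 2.5%), beside 1.62% of all genes. The 3 genes were all clustered and their peaks were low. At Zfp13 the only DOP peak, from 23736351 to 23736550 on chromosome 17, lay 4 bp from the start at a percentile of 21.8, and the nearest SST peak was 31102 bp away from it. At Zfp94 the DOP peaks, from 25101383 to 25101582 and from 25101885 to 25102084 on chromosome 7, had percentiles of 26.8 and 17.1. An SST peak lay 10060 bp from a start of Zfp94, just outside the window. At Zfp273 the DOP peak, from 67915574 to 67915773 on chromosome 13, lay in an intron 920 bp downstream at 10.3. With peaks of the upper 50% of each list alone, 8 members had a peak in the DOP list only and 4 in the SST list only. At this threshold the same counts were not made over all protein-coding genes, so they cannot be read as particular to the members.

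The stretch before the start of Zfp13 (chr17:23736455-23736574, minus strand, mm9), part of which is covered by the DOP peak, is shown with CG pairs in capitals. It held 7 CG pairs, and the CpG ratio of the region was 0.407, between the medians of the members with and without peaks.
Zfp13: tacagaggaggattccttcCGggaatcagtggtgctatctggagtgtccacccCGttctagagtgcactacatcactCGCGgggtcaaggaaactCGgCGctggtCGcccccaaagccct

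More DOP than SST peaks were found at 46 members and fewer at 34, of 133 with a peak in either list (34.6% and 25.6%), and 53 had equal numbers. Over all protein-coding genes with a peak the shares were 32.5% and 28.5%, and for the Zfp genes above 400 the counts were 46 and 49. Among single members 26 had more and 15 fewer DOP peaks, and among clustered members 20 and 19. Whether these splits differ was not tested. Of the peaks at members, 58 DOP peaks (16.3%, 12.9 to 20.5) overlapped no SST peak and 44 SST peaks (12.9%, 9.73 to 16.8) no DOP peak, beside 20.0% of all DOP and 16.7% of all SST peaks. Within 10 kb of any protein-coding start the shares were 16.2% and 13.3%. Such peaks were low: their median percentile was 21.5 in the DOP list and 27.2 in the SST list, against 57.0 and 52.5 for peaks found in both, and 8 and 11 of them reached the upper 50% of their list. When peaks with a centre of the other list within 500 bp were counted as shared, 36 DOP and 17 SST peaks remained in 1 list. When shared peaks had to cover 50% or more of each other, the counts were 86 and 75.

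**Figure D5:**
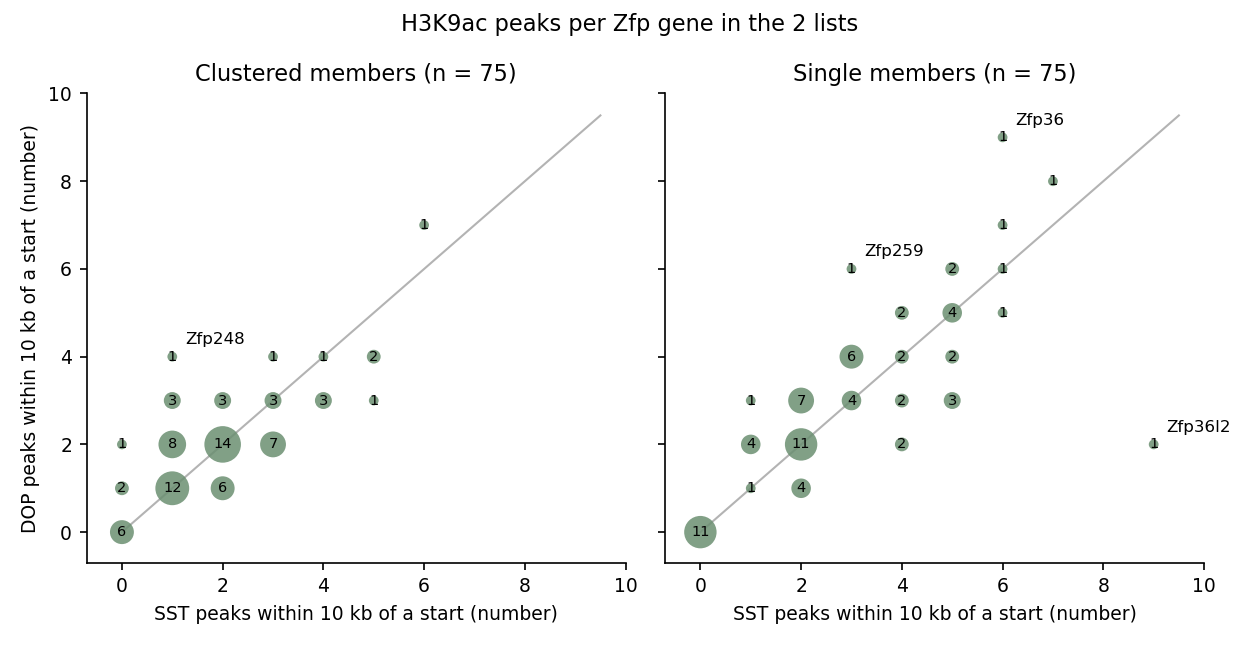
Number of DOP peaks (vertical axis) against the number of SST peaks (horizontal axis) within 10 kb of a start, for the 75 clustered and the 75 single members; the figure in each circle and its area give the number of members at that position, and the grey line marks equal numbers. Single members reach 9 peaks, and Zfp36l2 stands furthest from the line with 2 DOP and 9 SST peaks.

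The largest difference in peak number was at Zfp36l2, a member of the CCCH family, whose proteins bind AU-rich elements and promote decay of mRNAs. Zfp36l2 on chromosome 17 (84583271 to 84587287) had 2 DOP and 9 SST peaks. Its highest peak was found in both lists, at percentiles of 90.8 and 93.9 and 107 bp and 118 bp downstream of a start. The 6 SST peaks without a DOP counterpart lay from -365 bp to 3801 bp from a start, 2 of them in a coding exon at 75.0 and 68.4, 1 in the 5′ UTR at 74.7 and 1 in the 3′ UTR at 61.0. Zfp36, the gene of tristetraprolin, went the other way with 9 DOP and 6 SST peaks, or 5 and 3 when only peaks nearest to its own start were counted. Of its 3 DOP peaks without an SST counterpart, 1 lay in the coding exon 900 bp downstream of the start at a percentile of 75.2, and the others 3210 bp and 3869 bp downstream at 55.5 and 33.5, the last of them nearer to the start of Plekhg2. In each list 3 of the peaks near Zfp36, the highest among them, lay in the 5′ UTR of the neighbouring Plekhg2. Zfp36l1 had 1 DOP and 2 SST peaks with the highest at 77.5 and 68.8. Of the 3 members of the family with peaks, 1 had more and 2 had fewer DOP peaks, beside 32.5% and 28.5% of all protein-coding genes with a peak.

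Zfp36 differed by 3 peaks, as did Zfp248 and Zfp259, and 11 members differed by 2, of which Zfp236 was named for the highest peak. Zfp248 had 4 DOP peaks and 1 SST peak, but the 2 DOP peaks that overlapped none of the other list lay 521 bp and 427 bp from it, and the SST peak had the higher percentile, 79.1 against 56.1. Its neighbour Zfp9 had 3 and 1, with a DOP peak at -306 bp from the start that had a percentile of 54.6 and lay 605 bp from the nearest SST peak. Zfp259, which encodes a zinc finger protein that binds the SMN protein, had 6 DOP and 3 SST peaks, of which 3 and 1 lay nearest to the start of Bud13. The DOP peaks of Zfp259 without a counterpart had percentiles of 11.9 and 11.5. Zfp236 had 2 DOP and 4 SST peaks with the highest at 90.4 and 90.7.

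The listed regulators and neural genes carried high peaks under both conditions. All 14 listed members had a peak in each list, with 57 peaks in both the DOP and the SST list and medians of the highest peak of 86.5 and 88.6. Their median CpG ratio was 0.783. The 52 single members with a ratio of 0.6 or more, some of them listed here, also all had a peak in each list. The medians of that group were 81.5 and 84.7. Over all protein-coding genes 57.7% and 56.9% had a peak, with medians of 78.4 and 77.3. Zfp91 was described above. Zfp217, a co-repressor subunit, had 6 peaks in each at 96.5 and 94.5, and Zfp335, a regulator of neurogenesis, 4 in each at 94.6 and 95.5. Zfp143, the activator named above, had 5 in each at 93.5 and 91.1 and Zfp148 5 in each at 93.7 and 92.0. Zfp207, a mitotic spindle protein, had 6 and 5 at 92.7 and 93.1. Zfp292 had 5 and 6 peaks at 85.3 and 93.9, and Zfp106, an RNA-binding protein, 3 and 5 at 87.4 and 85.8. Zfp238, a repressor in neuronal differentiation, had 4 and 5 at 76.7 and 75.4, Zfp365 2 and 1 at 66.0 and 71.9, and Zfp161 4 and 3 at 85.0 and 84.7. Zfp219 had 5 and 4 peaks, at 84.0 and 85.0, and Zfp191, whose loss impairs myelination, 2 and 1 at 85.6 and 86.1. The lowest was Zfp110, a clustered gene whose product binds the p75 neurotrophin receptor, with 1 DOP and 2 SST peaks at 40.9 and 23.5. Of the 14 genes 5 had more and 4 fewer DOP peaks (35.7% and 28.6%), beside 32.5% and 28.5% of all protein-coding genes with a peak.

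Among the genes of pluripotency, germ line and imprinting, 3 of the 6 found in the annotation had peaks in each list. Over all protein-coding genes the shares were 57.7% (DOP) and 56.9% (SST). Zfp281, a regulator of pluripotency that is also widely expressed, had 2 in each at 85.5 and 90. Zfp296 had 3 DOP and 2 SST peaks, with the highest at 64.1 and 65.2, all of them in an intron of the neighbouring Gemin7. Zfp57, which protects methylation at imprinted genes, had 3 and 2 low peaks with the highest at 29.2 and 41.3. The other 3, Zfp42, Zfp352 and Zfp353, had none, as given above.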

How the data were processed

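H3K9ac peak lists of Q111 DOP and Q111 SST cells were used, 1 list per condition. According to the study's methods the reads were aligned to mm9 with Bowtie 2 and peaks were called with GPS, whereas the submitters' processing notes name BWA 0.7.10 and the file headers a GEM event call. How the 2 samples and the IgG control entered each call, and the threshold, are not given in the sources used here. The deposited values were the position, centre and score of each peak, as the authors' peak caller gave them. Depth could not be derived from the score. The deposited lists are larger than the peak sets described in the study's text, and all deposited peaks were used.

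Peaks were assigned to GENCODE vM1 starts by centre, and peaks of the lists were matched by any overlap. Proteins were translated from the annotated coding sequences, since no RefSeq protein table was used. Start regions were described by CpG ratio, by 32-base words found once in mm9, and by motifs. Python 3.11.15, pandas 2.3.3, numba 0.67.0, pysam 0.24.0 and matplotlib 3.10.9 were used, and the scripts were tested on simulated data with 9 checks. Counts were given with Wilson intervals and no test was made, since each condition had 1 list.

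Genes were named if they belonged to a list of members, had peaks in 1 list only, had the 5 highest peaks of a list or the 5 largest differences in peak number, lay in the 3 largest clusters, or had another member within 10 kb. Zfp60, Zfp59, Zfp72, Zfp97, Zfp105, Zfp119a, Zfp119b, Zfp317 and the members without a peak or at a limit of a rule were named after their values were seen. The members and the lists were chosen with earlier results of these data known.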

Additional observations from a re-analysis of the deposited data

How the results depend on the processing

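Over 14 alternatives 135 values were recomputed, of which 20 moved by more than 1.5 times (counts) or out of the 95% interval of the reported value (shares and medians). Counts within 1.5 times still changed, and with peaks of the upper 50% of each list alone the members with a DOP peak fell to 96 and those with peaks of both lists to 88. No paired analysis was possible because each condition is represented by 1 list, which carries no replicates, and for the same reason no replicate could be left out. The median percentile of the highest peak was lower in clustered than in single members under 10 of 10 alternatives in both lists, between 56.1 and 69.7 against 77.2 to 83.4 in the DOP list and between 47.5 and 69.8 against 79.0 to 84.7 in the SST list. The share of members with a peak was higher in clustered members under 9 of 10 alternatives for DOP and 8 of 10 for SST. With peaks of the upper 50% of each list alone, 8 members had peaks in the DOP list only and 4 in the SST list only, 24 had more and 18 fewer DOP peaks, the clustered shares were 53.3% (DOP) and 45.3% (SST) and the single share 74.7% (DOP), the clustered medians were 69.7 and 69.8, and 27 DOP and 20 SST peaks overlapped none of the other list. With a window of 1 kb the clustered shares were 82.7% and 77.3% (single members 81.3% in both lists), and 38 DOP and 26 SST peaks overlapped none of the other list. With a score of at least 100, 5 members had peaks in the DOP list only, and with clusters counted once 96.7% held a DOP peak. Members with peaks in 1 list only, or more or fewer DOP peaks, were not set against all genes under these settings. Shared peaks defined by centres within 500 bp left 36 DOP and 17 SST peaks in 1 list, and by reciprocal overlap of at least 50%, 86 DOP and 75 SST peaks. Neighbours with at least 3 fingers whatever their name, equal numbers of the highest-scoring peaks, and the medians under each alternative were added after seeing the data. Sequencing depth is unknown, so the absence of a low peak says nothing about the absence of acetylation.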
